A study of Mus musculus with 24 samples.

Results

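The genes described here carry glucose into the cell, break it down to pyruvate, and pass pyruvate either to lactate or into the mitochondrion. They are 34 genes listed by symbol, of 55177 annotated genes in the deposited tables, and were measured by RNA sequencing in neurons cultured from the cortex of mouse embryos (embryonic day 16.5). The study compared resting with depolarized cultures, and cultures with and without Smarcc2, a core subunit of the BAF chromatin-remodelling complex. All cultures had been silenced overnight with 1 µM tetrodotoxin, which blocks sodium channels, and 100 µM D-AP5, which blocks NMDA receptors, and the depolarized ones then received 50 mM KCl for 30 min. The cultures were 7 or 18 days in vitro (DIV7 and DIV18) when collected.

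At DIV7 the cultures were wild type, treated with 0.1% DMSO, and made 2 resting and 2 KCl libraries. The DIV18 controls had received a guide RNA without a target (NT; 2 resting and 2 KCl libraries). The other DIV18 cultures were Smarcc2 knockouts: with empty vector (3 resting and 3 KCl), with wild-type Smarcc2 added back (2 resting and 3 KCl), with the S586E form (3 resting only) and with the S586A form (2 KCl only), in which a serine is replaced by glutamate or by alanine. The protocol in the labels counts the cortex of each embryo as a biological replicate. The labels do not give the promoter of the vector, nor the share of cells that took up guide or vector. RNA was selected by poly(A) at DIV7, while at DIV18 total RNA was depleted of ribosomal RNA.

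Glycolysis turns glucose into pyruvate in a chain of cytosolic steps, of which those run by hexokinase, phosphofructokinase and pyruvate kinase are the main points of control. Lactate dehydrogenase converts pyruvate and lactate into each other, monocarboxylate transporters carry both across the cell membrane, and the mitochondrial pyruvate carrier feeds pyruvate to the pyruvate dehydrogenase complex, which the PDK kinases switch off. Neurons take up glucose mainly through Slc2a3 (GLUT3), while Slc2a1 (GLUT1) is the transporter of glia and of vessel endothelium, and Slc2a1, Hk2, Ldha and Pdk1 are textbook targets of the hypoxia-inducible factors.

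The libraries held 24536056 to 30135576 estimated counts at DIV7 and 14510199 to 24024959 at DIV18, and the 34 genes took 0.683% to 1.11% of them. All 34 passed the low-count filter in each fit. Levels within an age are given as CPM, counts scaled to a library of 1000000 with TMM factors. Smarcc2 itself lay at 237 to 283 CPM in the NT libraries and 47.1 to 64.1 in the knockouts with vector. All addback cultures lay above NT, and the mutant forms above wild type. At rest Smarcc2 was at 756 to 816 CPM with wild type and 1164 to 1276 with S586E. Under KCl it was at 737 to 1089 with wild type and 1303 to 1340 with S586A. Form and level of Smarcc2 thus differ together between the addback cultures and cannot be told apart. For 8 early-response genes used as a check of the stimulus, the number called higher after KCl (adjusted p under 0.05) differed by group. It was 8 at DIV7, 1 in NT, 6 in the knockout with vector and 5 in the knockout with wild-type Smarcc2. The 1 called in NT was Fosb (log2 fold change 3.17). In NT only 2 of 20940 genes were called in all, so a gene not called may still have risen. Neuron markers (8 genes) summed to 4634 to 6426 CPM over all libraries. Astrocyte markers (8 genes) summed to 534 to 646 CPM at DIV7 and 839 to 1992 at DIV18, so the cultures were not neurons alone. In such bulk RNA, fewer cells of a type and less RNA per cell cannot be told apart.

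By TPM, which is per length and so can be set between genes, the order of the members in resting NT cultures ran from Gapdh (968 and 961 TPM in the 2 libraries), Aldoa (795 and 912), Eno2 (471 and 463) and Pkm (393 and 420) down to Pfkfb4 (2.62 and 3.32), Hk2 (1.28 and 4.62) and Pdk4 (1.86 and 2.41). Hexokinase was almost all Hk1, which held 97.1% ± 2.1 (SD, n = 2) of the Hk1 and Hk2 TPM. Slc2a3 exceeded Slc2a1 in both libraries (79.9 and 82.6 against 18.5 and 34.7 TPM). The neighbours Tpi1 (315 and 372) and Gpi1 (315 and 384) overlapped and cannot be ordered.

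Pkm, pyruvate kinase, makes its M1 and M2 forms from a pair of mutually exclusive exons, and the tables separate them. The 2 exons are shown because the later comparison of ages turns on them. They lie side by side on the plus strand of chromosome 9 (build GRCm38, GENCODE M21): the exon of the M1 transcript at chr9:59675029-59675195 and that of the M2 transcript at chr9:59675568-59675734. Each has 167 bases, 64 of which differ (61.7% identity). Capitals mark the differing bases.
Pkm M1 exon: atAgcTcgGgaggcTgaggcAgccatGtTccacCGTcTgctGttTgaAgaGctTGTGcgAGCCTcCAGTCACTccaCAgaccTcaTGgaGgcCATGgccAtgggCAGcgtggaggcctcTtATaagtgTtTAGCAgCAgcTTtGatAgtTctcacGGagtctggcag
Pkm M2 exon: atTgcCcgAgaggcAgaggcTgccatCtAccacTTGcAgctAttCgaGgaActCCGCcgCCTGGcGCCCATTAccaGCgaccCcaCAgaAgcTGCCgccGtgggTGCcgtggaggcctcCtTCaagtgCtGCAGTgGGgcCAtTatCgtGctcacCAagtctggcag

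In resting DIV18 cultures, the knockout with empty vector had lower levels of glucose transporter Slc2a1, of several glycolytic enzymes and of pyruvate carrier subunit Mpc1 than NT. Of the 34 members, 8 were lower and 2 were higher at an adjusted p under 0.05 in edgeR's quasi-likelihood test. Over all genes tested, 5.90% were called (3.77% lower and 2.13% higher). The median log2 fold change was -0.21 over the members and 0.02 over all genes. The 8 lower genes came from several stages of the pathway: uptake (Slc2a1), the upper steps (Gpi1, Pfkl, Pfkp), the lower steps (Eno1), lactate dehydrogenase (Ldha), the pyruvate carrier (Mpc1) and a PDK kinase (Pdk4). The calls other than Pgk1 all rest on the second resting NT library: without it, Pgk1 alone was called, and the median over members was -0.16. The calls over all genes fell with it in the same way, from 1236 genes (5.90%) to 100 (0.444%). Without replicate 3 of the resting vector cultures 4 members were called (4.97% of all genes): Mpc1, Pfkl, Pgk1 and Slc2a1.

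**Figure D1:**
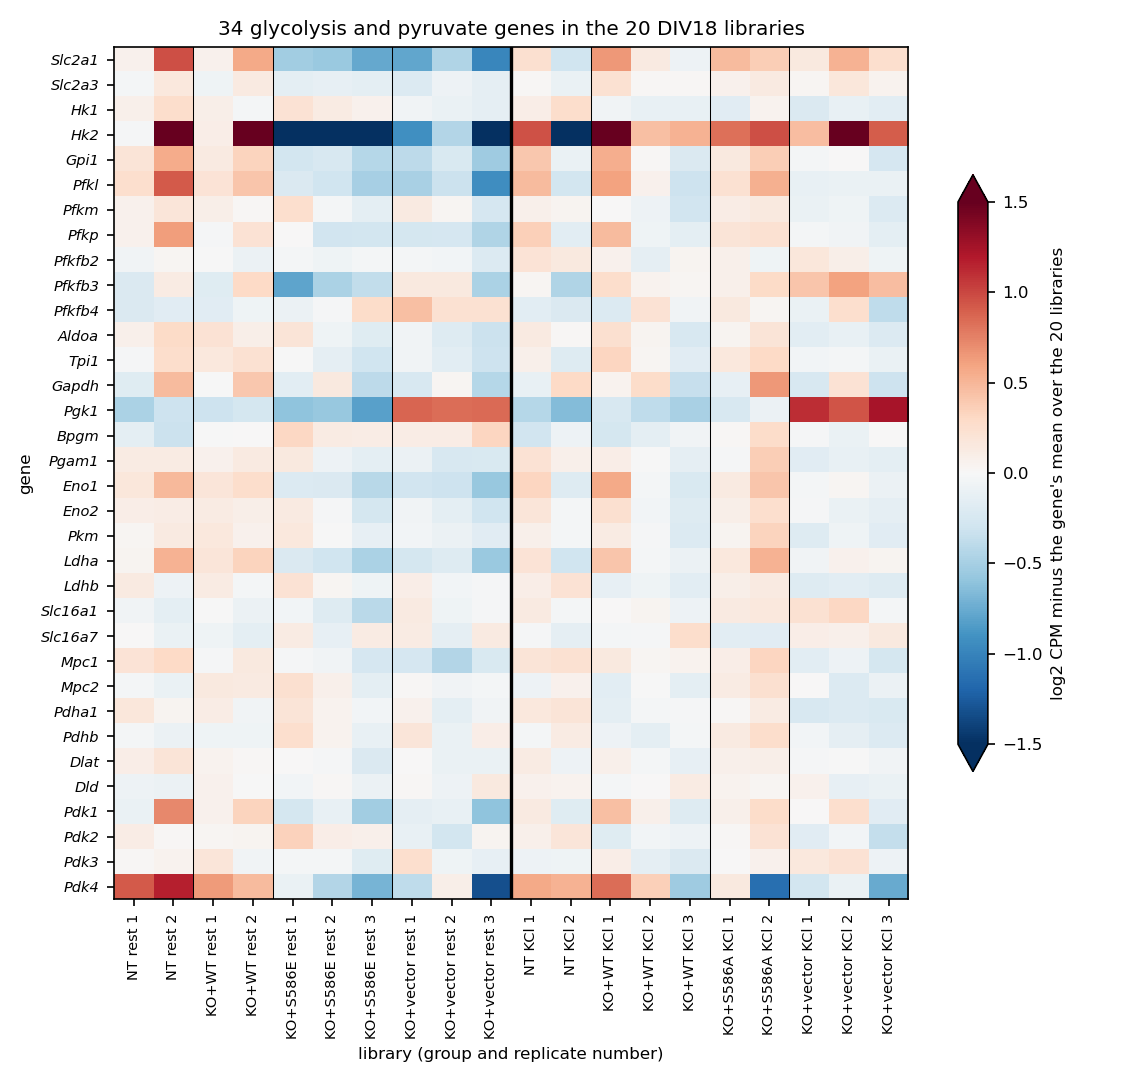
Heat map of the 34 members (rows) in the 20 DIV18 libraries (columns, resting left of the thick line and KCl right of it). Colour gives log2 CPM minus the mean of the gene over the 20 libraries, and the scale stops at 1.5 in either direction. Slc2a1, Hk2, Pfkl and Ldha are low in the resting vector and S586E columns, Pgk1 is high in the 6 vector columns only, and 17 members have their highest resting value in NT replicate 2.

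Slc2a1 (GLUT1, chr4:119108711-119137983, plus strand, GRCm38) had values of 58.0 and 108 CPM in resting NT cultures and of 32.4, 40.6 and 28.2 CPM in the 3 resting vector libraries. The groups did not overlap, and the second NT library was the highest of all. The log2 fold change was -1.30 (SE 0.24, adjusted p = 0.0047), a 2.46-fold lower level. Without the second NT library it was -0.78 (SE 0.25, adjusted p = 0.235).

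Hk2, the inducible hexokinase, was scarce and varied widely: 7.48 and 28.4 CPM in NT against 3.99, 5.59 and 0.892 in the knockout with vector. Its log2 fold change of -2.33 (SE 0.70) did not pass the test (adjusted p = 0.057), and DESeq2 called it. Without the second NT library it was -1.07 (SE 0.81, adjusted p = 0.716 in edgeR). The main neuronal hexokinase Hk1 lay at 362 and 414 against 331, 320 and 313 CPM (log2 fold change -0.27, adjusted p = 0.062). Neither hexokinase passed the main test, though the groups did not overlap for either.

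Among the phosphofructokinase subunits, Pfkl, the liver-type subunit, had 109 and 173 CPM in NT and 65.3, 73.2 and 47.8 CPM in the knockout with vector (log2 fold change -1.18, SE 0.24, adjusted p = 0.00769). The platelet-type subunit Pfkp had 264 and 392 against 211, 212 and 184 CPM (log2 fold change -0.69, SE 0.18, adjusted p = 0.027). The muscle-type subunit Pfkm, with 369 and 398 against 387, 358 and 297 CPM, overlapped between groups and was not called. Gpi1, which isomerises glucose 6-phosphate, fell from 692 and 885 to 461, 516 and 416 CPM (log2 fold change -0.76, SE 0.18, adjusted p = 0.0167). Of the 3 PFKFB enzymes, which set the level of the phosphofructokinase activator fructose 2,6-bisphosphate, none was called. Pfkfb4 had 7.86 and 8.12 CPM in NT and 12.4, 10.7 and 10.7 in the knockout with vector (log2 fold change 0.50, adjusted p = 0.103).

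**Figure D2:**
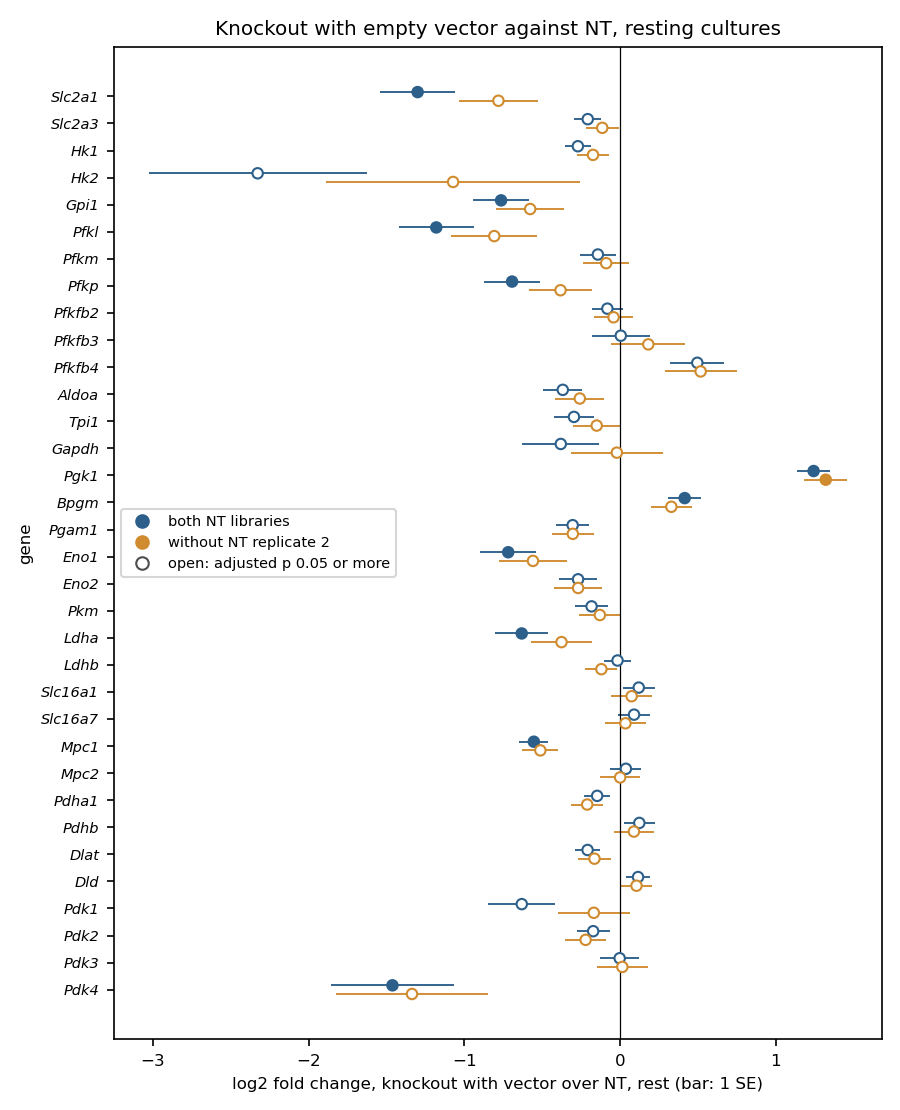
Log2 fold change of each member between the knockout with vector and NT in resting cultures (x axis; bars are 1 SE), with both NT libraries and without the second. Filled points have an adjusted p under 0.05: 10 of 34 with both libraries, and Pgk1 alone without the second.

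In the lower part of the chain, Eno1, the ubiquitous enolase, had 259 and 320 CPM in NT and 188, 185 and 155 in the knockout with vector (log2 fold change -0.72, SE 0.18, adjusted p = 0.0228). Ldha, the lactate dehydrogenase subunit that dominates in glycolytic cells, had 296 and 411 against 239, 251 and 195 CPM (log2 fold change -0.63, SE 0.17, adjusted p = 0.0347). Its partner Ldhb had 192 and 166 against 188, 171 and 173 CPM, which overlap. The share of Ldhb in the Ldha and Ldhb TPM was 39.4% ± 7.8 (SD, n = 2) in NT and 49.6% ± 3.4 (SD, n = 3) in the knockout with vector. Bpgm, which makes 2,3-bisphosphoglycerate, was higher, with 49.2, 49.3 and 56.7 CPM against 41.1 and 36.5 (log2 fold change 0.42, SE 0.11, adjusted p = 0.0256).

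At the mitochondrial step, Mpc1 varied little within groups: 109 and 116 CPM in NT and 79.4, 69.9 and 80.3 CPM in the knockout with vector (log2 fold change -0.55, SE 0.09, adjusted p = 0.00221). It kept its call in 11 of 12 alternatives, and was lost without the second NT library (log2 fold change -0.51, adjusted p = 0.0591). Mpc2, the other subunit of the same carrier, had 48.6 and 46.3 against 50.1, 47.7 and 48.4 CPM and overlapped between groups. None of Pdha1, Pdhb, Dlat and Dld, the subunits of pyruvate dehydrogenase, was called. Pdk4, a scarce kinase of that complex, had 4.80 and 5.69 against 1.94, 2.69 and 1.02 CPM (log2 fold change -1.46, SE 0.39, adjusted p = 0.0344).

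The second resting NT library held the highest value of the 10 resting DIV18 libraries for 17 of the 34 members, against 16.1% of all genes tested. Replicate 3 of the resting vector cultures held the lowest value for another 17, against 13.8% of all genes. Within NT at rest, 25 members were higher in replicate 2 than in replicate 1, with Hk2 (1.92 on the log2 scale) the most so, and the median log2 ratio was 0.11 against 0.00447 for all genes. Under KCl the order was the other way: 10 members were higher in replicate 2, the median log2 ratio was -0.12, and Hk2 again moved most (-2.49). So the NT libraries differed among themselves in the genes that separate NT from the knockout.

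Markers of other cells also moved between these groups. Astrocyte markers summed to 1802 and 1609 CPM in resting NT and to 949 to 1385 in the resting vector cultures. Oligodendrocyte-lineage markers (8 genes) summed to 197 and 207 against 134 to 152 CPM, with Sox10 at 0 in every resting vector library. Proliferation markers (6 genes) summed to 18.3 and 36.1 against 3.32 to 6.30 CPM, and microglia markers (8 genes) to 7.34 to 8.20 against 3.80 to 4.14. Fibroblast or vessel markers (10 genes) summed to 20.4 to 29.3 against 39.0 to 52.4, with Cldn5 at 0 in both groups. Most of that sum with vector was Rgs5 (mean 33.5 CPM, against 10.6 in NT). In the resting cultures with wild-type Smarcc2, the astrocyte sums were 1235 and 1049 CPM, the oligodendrocyte-lineage sums 137 and 110, the proliferation sums 5.03 and 5.55, and the microglia sums 6.08 to 9.01, and Slc2a1 was at 58.3 and 82.4 CPM. The part of other cells in the member differences was not tested.

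With wild-type Smarcc2 added back, the resting members lay near NT. No member was called between wild-type addback and NT at rest (edgeR, 0 of 34, 0 at an unadjusted p under 0.05 against 1650 of 20940 genes, 0 by DESeq2; 0.105% of all genes called). Hk2 had 8.11 and 23.97 CPM, Pfkl 105 and 122, Gpi1 666 and 762, Ldha 326 and 361, and Eno1 259 and 275, each of these values above all 3 resting vector libraries. Against the vector cultures themselves, however, Pgk1 was the single called member (0.0143% of all genes called), and 16 members had an unadjusted p under 0.05, 14 of them higher with wild-type Smarcc2. Of all 20940 genes tested, 2316 had one. The log2 fold change was 1.06 for Slc2a1 (SE 0.24, adjusted p = 0.127) and 0.37 for Mpc1 (SE 0.09, adjusted p = 0.159). DESeq2 called 5 members there (0.850% of all genes): Gpi1, Ldha, Mpc1, Pgk1 and Slc2a1.

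With the S586E form, the resting levels of several members lay near those of the vector cultures. Slc2a1 was at 38.7, 37.9 and 32.6 CPM, Hk2 at 1.26, 2.39 and 1.72, Pfkl at 78.6, 74.2 and 64.7, and Ldha at 247, 234 and 207. All of these lay below every NT and wild-type addback library at rest. With S586E, Gpi1 had 498, 510 and 449 CPM, Mpc1 93.4, 91.1 and 79.2, and Bpgm 56.5, 49.6 and 49.1. Against NT, 5 members were lower and 1 was higher (2.78% of all genes called; 1.74% lower and 1.04% higher): Slc2a1 (log2 fold change -1.19, SE 0.24, adjusted p = 0.0187), Hk2 (log2 fold change -3.29, SE 0.74, adjusted p = 0.0279), Pfkl (-0.96), Gpi1 (-0.70) and Mpc1 (-0.35) fell, and Bpgm rose (0.42). Without the second NT library 0 members were called (0.0133% of all genes), and Hk2 was at -2.04 (SE 0.83, adjusted p = 0.621). Without S586E replicate 1, 2 or 3 the members called were 0, 1 (Slc2a1) and 0 (0.306%, 0.813% and 1.28% of all genes), and without the first NT library 7 (2.39% of all genes). The calls of Gpi1, Mpc1 and Bpgm against NT were lost in 5, 8 and 7 of 12 alternatives. This comparison and that of the vector cultures share the 2 NT libraries. Markers of other cells moved here too: astrocyte markers summed to 1288 to 1404 CPM with S586E against 1609 and 1802 in NT, oligodendrocyte-lineage markers to 141 to 162 against 197 and 207, proliferation markers to 4.21 to 6.90 against 18.3 and 36.1, microglia markers to 5.69 to 6.68 against 7.34 to 8.20, and fibroblast or vessel markers to 38.7 to 45.9 against 20.4 to 29.3. Tmem119 and C1qb were at 0 in every S586E library, and Cldn5 in both groups. The markers called in this comparison were Pdgfra (log2 fold change -5.08), Cspg4 (-2.68), Sox10 (-6.65), Mki67 (-2.77) and Top2a (-2.80), which fell, and Rgs5 (1.47), which rose. Rgs5 made up most of the fibroblast or vessel sum with S586E (mean 29.6 CPM, against 10.6 in NT). The part of other cells in these member differences was not tested.

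The S586E and wild-type addback cultures at rest also differed in Smarcc2 level (1164 to 1276 against 756 to 816 CPM), so form and level cannot be told apart. Between S586E and wild-type Smarcc2 at rest, no member and no gene passed edgeR's test (0% of all genes called; 2696 of 20940 genes at an unadjusted p under 0.05). Yet 12 members had an unadjusted p under 0.05, all 12 lower with S586E, among them Hk2 (log2 fold change -3.14, SE 0.74, adjusted p = 0.123), Slc2a1 (-0.95, SE 0.24, adjusted p = 0.135) and Ldha (-0.59, SE 0.17, adjusted p = 0.171). DESeq2 called 4 (1.52% of all genes): Hk2, Ldha, Pgk1 and Slc2a1. Between S586E and vector at rest, Pgk1 alone was called (0.0191% of all genes called), and the log2 fold change of Slc2a1 was 0.11 (SE 0.22).

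Counted over the resting libraries one by one, 10 members were higher in all 4 NT and wild-type addback libraries than in all 6 vector and S586E libraries: Dlat, Eno1, Gpi1, Hk2, Ldha, Pdk1, Pdk4, Pfkl, Slc2a1 and Slc2a3. Bpgm alone was lower in all 4. Of all genes tested, 4.01% were higher in this sense and 2.44% lower. This split was chosen after the values had been seen and is a description.

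**Figure D3:**
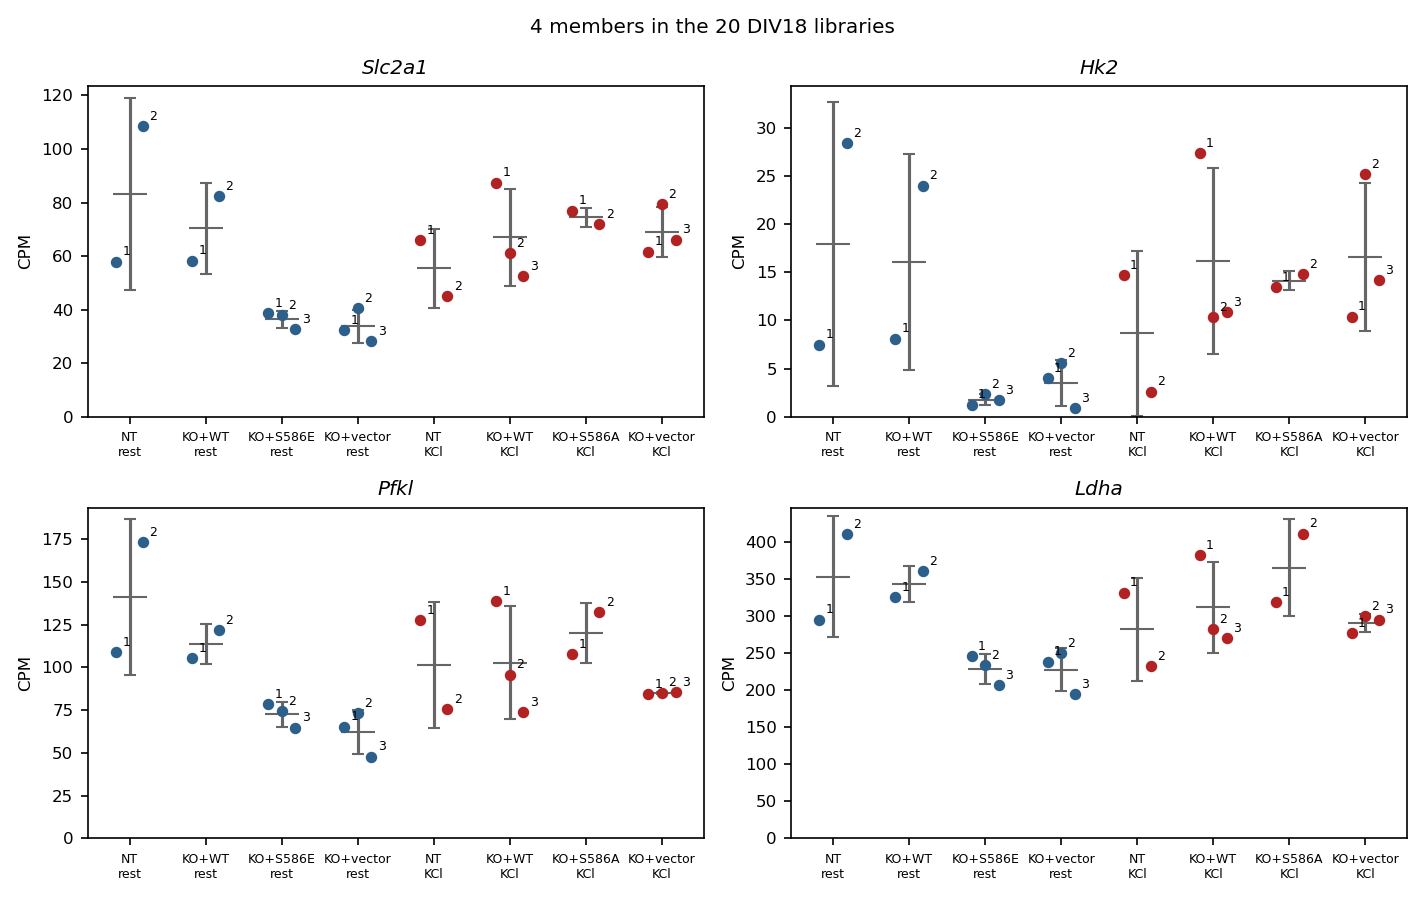
CPM of Slc2a1, Hk2, Pfkl and Ldha in each DIV18 library, resting in blue and KCl in red, labelled by replicate number; horizontal marks are means and bars are SD. The 6 resting vector and S586E libraries lie below the 4 resting NT and wild-type addback libraries for each gene, and under KCl the ranges of NT and vector overlap for each gene.

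After 30 min of KCl, fewer members passed the test between vector and NT. Of the 34 members, 4 were lower and 1 was higher (2.67% of all genes called; 1.95% lower and 0.726% higher). Apart from Pgk1 these were Pdha1, the catalytic alpha subunit of pyruvate dehydrogenase (192, 197 and 194 against 255 and 259 CPM, log2 fold change -0.40, SE 0.08, adjusted p = 0.0166), Hk1 (296, 319 and 307 against 367 and 414, -0.35), Mpc1 (84.6, 89.7 and 78.9 against 108 and 111, -0.38) and Ldhb (153, 157 and 153 against 188 and 203, -0.34). Mpc1 and Pgk1 were thus called in both states. The other calls differed between the states, but passing a threshold in 1 state only is no test of that difference. The test of the difference between rest and KCl, given with the KCl responses, called 0 members and 0% of all genes. In it 12 members and 1845 of 20940 genes had an unadjusted p under 0.05 in edgeR. With no gene passing, it does not show that the states agree. Without any 1 of the 5 libraries, Pgk1 alone kept its call, and 0.164% to 1.07% of all genes were called. Astrocyte marker sums in these groups were 1442 and 1992 CPM in NT and 839 to 962 in the knockout with vector. Neuron sums were 5251 to 5681 against 4634 to 4848, microglia sums 8.53 to 8.91 against 5.27 to 6.17, and proliferation sums 5.07 to 24.5 against 3.79 to 4.11. Oligodendrocyte-lineage and fibroblast or vessel sums overlapped. The markers called, all lower with vector, were Snap25 (log2 fold change -0.36), Slc1a2 (-0.77), Aqp4 (-3.38), S100b (-1.46), Pdgfra (-3.33), Olig1 (-2.57) and Olig2 (-2.18). The part of the cell mix in the member differences was not tested.

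Slc2a1 had 61.6, 79.5 and 66.2 CPM in the KCl vector libraries and 66.0 and 45.1 in the KCl NT libraries, which overlap. Hk2 had 10.4, 25.2 and 14.2 against 14.7 and 2.61 CPM, which overlap too. With the wild-type form under KCl, no member was called against NT (0.201% of all genes called; 4 members and 2300 of 20940 genes at an unadjusted p under 0.05, and 1 member, Hk1, by DESeq2). With S586A under KCl, none was called against NT either (0.430% of all genes called; 3 members and 2472 genes at an unadjusted p under 0.05, and 1 member, Pgk1, by DESeq2). S586A and wild-type Smarcc2 under KCl had 0 members called between them (0% of all genes called; 6 members and 1824 genes at an unadjusted p under 0.05, and 0 members by DESeq2). Wild type against vector under KCl gave Pgk1 alone (0.00955% of all genes called), as did S586A against vector (0.00955% of all genes called), where DESeq2 called 4 (1.03% of all genes): Mpc1, Pdha1, Pgk1 and Pkm.

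The KCl response itself was not called for any member at DIV18. In NT, 0 of 34 members passed edgeR's test (0.00955% of all genes called), 1 had an unadjusted p under 0.05 (906 of 20940 genes), and DESeq2 called 0. The knockout with wild-type Smarcc2 likewise had 0 called (0.0430% of all genes called), 1 at an unadjusted p under 0.05 (1040 genes) and 0 by DESeq2. In the knockout with vector 0 were called (0.0716% of all genes called), but 12 had an unadjusted p under 0.05, 7 of them higher after KCl, against 2167 of 20940 genes. DESeq2 called Slc2a1 there (0.248% of all genes). Slc2a1 went from 32.4, 40.6 and 28.2 to 61.6, 79.5 and 66.2 CPM, with no overlap (log2 fold change 1.03, SE 0.22, adjusted p = 0.129). Hk2 went from 3.99, 5.59 and 0.892 to 10.4, 25.2 and 14.2 CPM, also with no overlap (log2 fold change 2.22, SE 0.66, adjusted p = 0.275).

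The difference between these responses was tested as an interaction. For the vector cultures minus NT, 0 members and 0% of all genes were called, 12 members and 1845 of 20940 genes had an unadjusted p under 0.05, and DESeq2 called 0 members. The interaction of Slc2a1 was 1.61 on the log2 scale (SE 0.35, unadjusted p = 0.000186, adjusted p = 0.417 in edgeR). For wild-type Smarcc2 minus vector, 0 members and 0% of all genes were called, 4 members and 768 genes had an unadjusted p under 0.05, and DESeq2 called 0 members. There the interaction of Slc2a1 was -1.10 (SE 0.33, unadjusted p = 0.00325 in edgeR's fit across all genes), which did not pass the adjustment.

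Pgk1, phosphoglycerate kinase, is given apart. Its gene (chrX:106187100-106203699, plus strand, GRCm38) was measured at 1292, 1269 and 1278 CPM in the 3 resting and 1525, 1367 and 1671 CPM in the 3 KCl libraries of the knockout with empty vector. All 14 other DIV18 libraries lay between 403 and 665 CPM: 512 and 570 in resting NT, 528 and 452 in KCl NT, 571 and 588 in resting and 597, 543 and 506 in KCl wild-type addback, 465, 479 and 403 with S586E, and 601 and 665 with S586A. The vector cultures thus stood apart from NT and from every addback culture, with no overlap. Against NT the log2 fold change was 1.24 at rest (SE 0.11, adjusted p = 5.24e-06), a 2.37-fold higher level, and 1.63 under KCl (SE 0.11, adjusted p = 7.16e-08), a 3.10-fold higher level. Against vector it was -1.14 (SE 0.11) with wild-type Smarcc2 and -1.51 (SE 0.09) with S586E at rest, and -1.47 (SE 0.09) with wild-type and -1.26 (SE 0.11) with S586A under KCl. Pgk1 kept its call in these 6 comparisons in every alternative run.

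**Figure D4:**
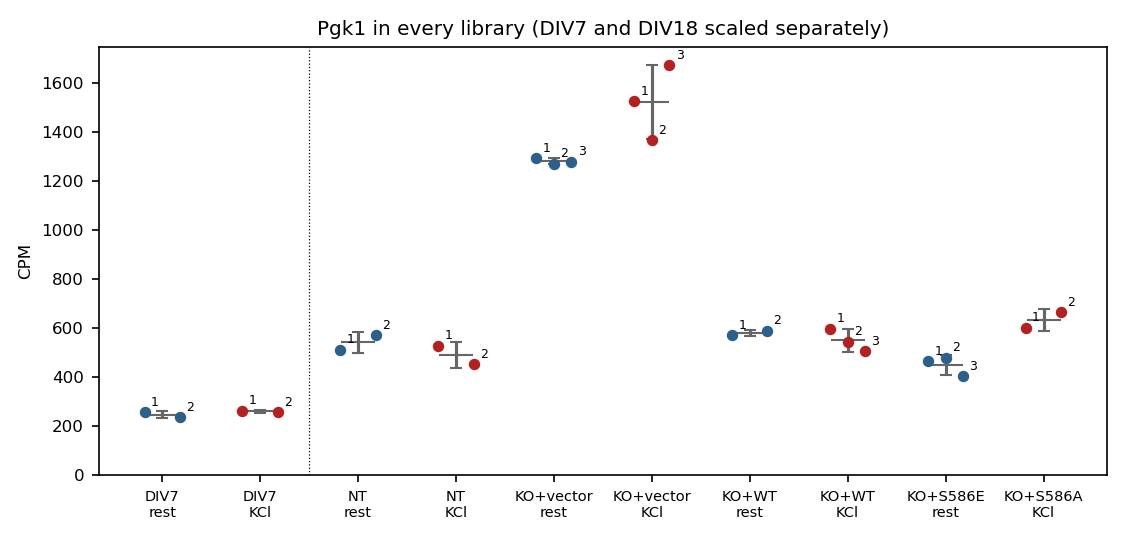
Pgk1 in CPM (y axis) in all 24 libraries by group, resting in blue and KCl in red, labelled by replicate number; horizontal marks are means and bars are SD, and DIV7 and DIV18 were scaled in separate fits. The 6 libraries of the knockout with empty vector lie at 1269 to 1671 CPM and the other 14 DIV18 libraries at 403 to 665.

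Nearly all of these counts were on 1 transcript, the main protein-coding one, which held 99.7% to 100% of them in the DIV18 libraries and at least 98.3% at DIV7. The tables give counts per transcript and no read positions. The Pgk1 promoter is widely used in expression vectors, and the labels do not say which promoter this vector carries, so whether part of the counts came from the vector was not tested. The genes of the neighbouring steps were not called: Gapdh, the enzyme before it, had 528, 639 and 465 CPM in the resting vector cultures against 551 and 866 in NT, and Pgam1, after it, 455, 409 and 414 against 525 and 527. The 250 bases before the annotated start of Pgk1 (chrX:106186850-106187099, plus strand, RefSeq on GRCm38.p6) are shown because this member separates the vector cultures from every other DIV18 group; capitals mark the letters ACGTG read on either strand.
Pgk1 upstream: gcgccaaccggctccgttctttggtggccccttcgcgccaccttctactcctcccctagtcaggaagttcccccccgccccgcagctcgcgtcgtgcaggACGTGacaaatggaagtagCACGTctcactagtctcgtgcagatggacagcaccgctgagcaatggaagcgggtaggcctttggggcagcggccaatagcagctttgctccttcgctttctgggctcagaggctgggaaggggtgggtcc

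ACGTG is the core of the element that hypoxia-inducible factors bind, and it also lies within the E-box CACGTG. It was searched on both strands in the 250 bases before each annotated start, and 16.6% of 32851 windows over all genes held it. Of the 34 members 32 had a window, 48 windows in all, and 18 of those windows (37.5%) held it, in 14 genes. The Ldha window, shown because it held the most matches of any member, lies at chr7:46845554-46845803 on the plus strand, before an inner start of the gene. Each strand was counted apart, so a CACGTG, which reads the same on both, counts as 2 matches, and the 3 stretches in capitals make 5; 0.134% of all windows held as many.
Ldha upstream: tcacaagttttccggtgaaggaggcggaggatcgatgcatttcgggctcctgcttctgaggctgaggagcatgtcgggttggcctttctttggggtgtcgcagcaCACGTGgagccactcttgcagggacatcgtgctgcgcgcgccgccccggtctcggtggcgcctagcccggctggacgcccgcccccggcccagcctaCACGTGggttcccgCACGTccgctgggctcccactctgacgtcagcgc
Of the 8 members lower in the resting vector cultures than in NT, Slc2a1 and Ldha had a match. A match is a string of letters and not a bound site.

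In wild-type DIV7 neurons, 30 min of KCl changed 3 members: 1 was higher and 2 were lower, against 17.0% of all genes called (7.34% higher and 9.67% lower). Slc2a3, the neuronal glucose transporter, rose from 215 and 187 to 279 and 267 CPM (log2 fold change 0.44, SE 0.07, adjusted p = 0.00724), with no overlap. Pfkp, the main phosphofructokinase subunit at this age, fell from 1133 and 1216 to 980 and 978 CPM (log2 fold change -0.26, SE 0.04, adjusted p = 0.00783). Pfkfb4 fell from 29.2 and 26.5 to 21.4 and 22.0 CPM (log2 fold change -0.36, SE 0.08, adjusted p = 0.0257), a call lost in DESeq2, with length offsets and in 3 of 4 fits without 1 library. Slc2a3 and Pfkp kept theirs in all 10 alternatives. The other 31 members were not called, and Slc2a1 lay at 9.82 and 9.43 against 10.2 and 9.22 CPM. The median log2 fold change over the members was 0.04.

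In NT cultures at DIV18, Slc2a3 had 273 and 311 CPM at rest and 282 and 260 under KCl. The difference of its responses (DIV18 NT minus DIV7) was -0.54 on the log2 scale (SE 0.13, adjusted p = 0.0649 in edgeR), so it was not called in the main fit, though DESeq2, length offsets and a fit of all 24 libraries called it. In that test 0 members were called (2.34% of all genes called) and 3 had an unadjusted p under 0.05 (3307 of 21072 genes). DESeq2 called 1. Culture age, RNA selection, guide RNA and DMSO treatment differ together between these groups and cannot be told apart.

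Between DIV7 and DIV18 cultures, which also differ in RNA selection, guide RNA and DMSO, the mix of isozymes differed in several families. Markers of other cells differed too, each age scaled in its own fit. At rest, astrocyte sums were 570 to 646 CPM at DIV7 and 1609 to 1802 in NT at DIV18. Oligodendrocyte-lineage sums were 70.0 to 78.1 and 197 to 207, and neuron sums 5156 to 5168 and 5312 to 5330. The part of other cells in this and the following differences between the ages was not tested. These shares are of summed TPM within a family and so do not depend on the scaling between libraries, but they rest on 2 resting libraries per age. The share of Pfkp in the 3 phosphofructokinase genes was 75.8% ± 1.7 (SD, n = 2) at DIV7 and 37.5% ± 4.2 (SD, n = 2) in NT at DIV18, while that of Pfkm was 18.1% ± 1.8 and 48.1% ± 6.1. Slc2a1 held 6.68% ± 0.012 of the Slc2a1 and Slc2a3 TPM at DIV7 and 24.2% ± 7.6 at DIV18. Pdk2 held 26.2% ± 0.53 and 59.8% ± 6.9 of the 4 PDK kinases, and Pdk1 52.4% ± 1.0 and 22.4% ± 7.2. Ldhb held 28.5% ± 0.53 and 39.4% ± 7.8 of lactate dehydrogenase, and Slc16a1 (MCT1) 36.3% ± 4.9 and 60.3% ± 0.28 of the pair Slc16a1 and Slc16a7 (MCT2). Eno2 held 34.4% ± 1.6 and 77.0% ± 3.1 of the Eno1 and Eno2 TPM, a share that near-identical copies of Eno1 alter. For none of these shares did the 2 ages overlap. No test was run on shares.

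**Figure D5:**
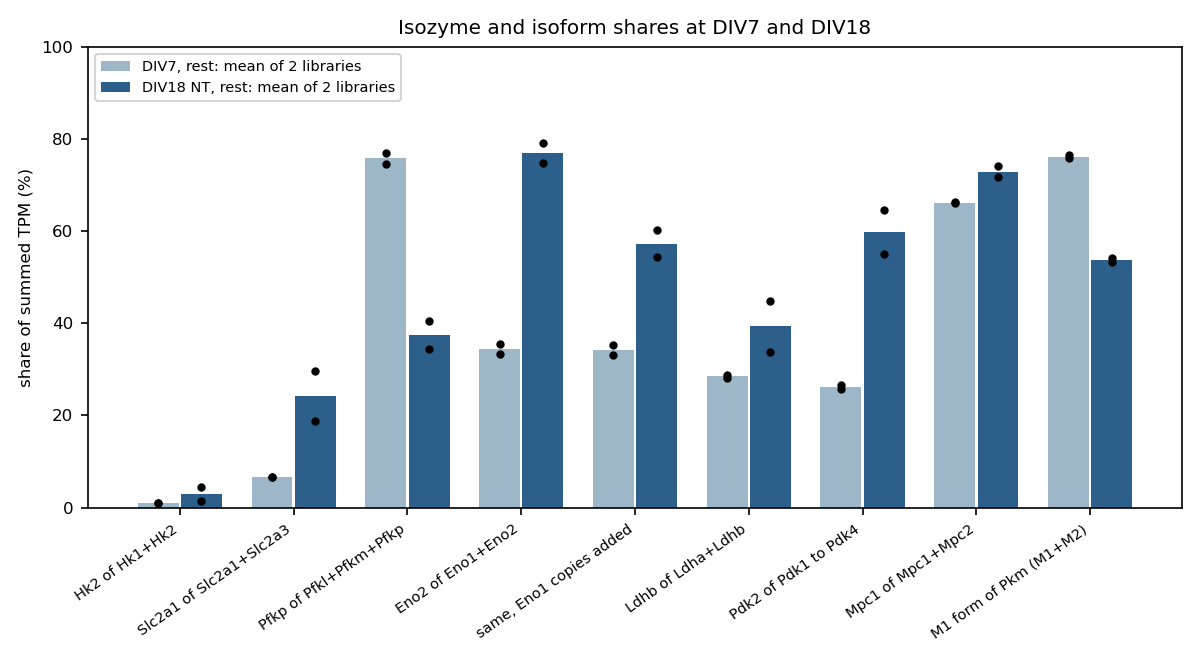
Share of 1 gene in the summed TPM of its family, and of the M1 form in Pkm, in resting DIV7 and resting DIV18 NT cultures (bars are means of 2 libraries, points the 2 libraries). Pfkp and the M1 form of Pkm have lower shares at DIV18, and Slc2a1, Eno2, Ldhb and Pdk2 higher ones; with the counts of near-identical copies added to Eno1, the Eno2 share at DIV18 is 57.3%.

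The M1 form of Pkm, with the first of the exons printed above, took 72.5% ± 0.58 (SD, n = 2) of the M1 and M2 counts in resting DIV7 cultures and 49.0% ± 0.59 (SD, n = 2) in resting NT cultures at DIV18. Under KCl it took 74.0% ± 0.64 and 49.7% ± 1.4. Every other DIV18 group had a mean of 51.3% to 53.1%. The M1 and M2 transcripts together held at least 98.4% of the Pkm counts of each group mean. Length-scaled TPM gave 76.2% and 53.7% at rest. The authors' program assigned the reads, and the poly(A)-selected and total-RNA libraries may place reads differently along a transcript, which was not tested.

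Levels between the ages depend on the scale, and RNA selection, guide RNA, DMSO and the markers of other cells differ with age here too. In CPM from a joint fit of the 8 DIV7 and NT libraries, 25 members were higher and 4 lower at DIV18 at rest (60.6% of all genes called; 30.0% higher and 30.6% lower), and under KCl 20 were higher and 5 lower (61.2% of all genes called). The median member log2 fold change was 0.89 at rest against -0.03 for all genes. In TPM, 10 members were higher and 24 lower at rest, with a median of -0.43, while the median over all genes was -1.33. On both scales the members thus lay above the middle of all genes, and 27 of 34 exceeded that median in TPM. Higher on both scales, with no overlap between the ages in TPM, were Pdk2, Slc2a1, Pdk4, Eno2, Pdk3, Aldoa and Gapdh, in the order of their TPM ratios. For Gapdh, though, the log2 TPM ratio was only 0.04 at rest. Under KCl it was -0.045 and the ages overlapped, and near-identical copies, given below, share its counts. The other uptake gene, Slc2a3, and the kinase Pdk1 had lower means in TPM at DIV18 (log2 ratios of -0.52 and -0.18). Pdk2 had 12.2 and 10.8 TPM at DIV7 and 55.3 and 51.6 in NT at DIV18 (log2 fold change 3.61 in CPM, SE 0.08). Slc2a1 had 8.69 and 8.04 against 18.5 and 34.7 TPM (3.33, SE 0.29), and Pdk4 0.520 and 0.940 against 1.86 and 2.41 TPM (2.85, SE 0.24). Pdk3 had 8.77 and 8.44 against 13.5 and 14.0 TPM (1.93, SE 0.11). Eno2, the neuronal enolase, had 206 and 173 against 471 and 463 TPM (2.89, SE 0.10), and Aldoa 666 and 555 against 795 and 912 TPM (1.83, SE 0.10). Hk2 (2.17 and 1.83 against 1.28 and 4.62 TPM) and Tpi1 (333 and 307 against 315 and 372 TPM) were called in CPM (1.94 and 1.44) and overlapped in TPM. The Hk2 call was lost in 6 of 11 alternatives, DESeq2 among them, and without the second NT library its log2 fold change was 0.70 (adjusted p = 0.449). Lower on both scales were Pfkp, with 577 and 642 against 78.3 and 118 TPM (-1.62, SE 0.19), and Pfkfb4, with 20.97 and 22.4 against 2.62 and 3.32 TPM (-1.58, SE 0.11). Pfkfb2 (-0.96, SE 0.08) and Pfkfb3 (-0.41, SE 0.15) were lower as well, but the call of Pfkfb3 was lost in 5 of 11 alternatives (adjusted p up to 0.219). Gpi1, with a log2 fold change of 1.28 in CPM, had 353 and 349 mean TPM. Ldha and Eno1 were not called, with log2 fold changes of 0.12 and -0.09.

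Near-identical copies touch several members. Eno1b, whose sequence shares 87.9% of its 31-base words with Eno1, took 51.8% to 58.2% of the summed Eno1 and copy counts in the DIV18 libraries and at most 0.0808% at DIV7. For Gapdh, the pseudogenes Gm7336 and Gm13394 took 15.2% to 24.3% and 50.5% to 67.5% of the sum at DIV18, and 47.1% to 49.5% and at most 0.316% at DIV7. The split between these copies is therefore uncertain. With all copies added to the member, Eno1 went from -0.09 to a higher level at DIV18 (log2 fold change 1.09, SE 0.13, at rest and 0.90 under KCl, adjusted p = 5.89e-05 and 0.000208 in edgeR), and Gapdh from 0.94 to 1.29 at rest. Within DIV18, Eno1 kept its fall in the resting vector cultures (log2 fold change -0.72, SE 0.15), and Ldhb lost its call under KCl.

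Other genes of the pathway were taken from fixed lists and read against the same background shares. Between the resting vector cultures and NT, 3.77% of all genes were called lower and 2.13% higher. All calls in these lists were in the lower direction there. They were 4 of 16 glycogen genes, 2 of 8 pentose phosphate genes, 2 of 12 other hypoxia-response genes, 2 of 20 regulators of glycolytic genes, 1 of 14 other isozymes, 1 of 12 other transporters, 1 of 7 other pyruvate dehydrogenase and carboxylase genes and 1 of 16 citric acid cycle genes. None of the 9 NADH shuttle genes was called. Slc16a3 (MCT4), a lactate exporter induced by hypoxia, had a mean of 9.36 CPM with vector and 32.1 in NT (log2 fold change -1.77, SE 0.40, adjusted p = 0.0149). Pcx, pyruvate carboxylase, had 59.7 and 137 (-1.20, SE 0.18, adjusted p = 0.00111), Pygb, brain glycogen phosphorylase, 86.1 and 141 (-0.71, adjusted p = 0.00269), and Tkt, transketolase, 104 and 154 (-0.57, adjusted p = 0.00178). Bnip3 (-1.06) and P4ha1 (-0.80), the 2 called of the 12 other hypoxia-response genes, were lower as well. The 2 called regulators were Egln3 (-1.90), itself a known hypoxia-response gene, and Txnip (-0.77). Aldoc (-1.11), the brain aldolase, is also an astrocyte marker. In this comparison the member calls other than Pgk1 rest on the second NT library, and the list calls without it are not given here.

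With S586E at rest, Slc16a3 (-2.17), Pcx (-1.02), Tkt (-0.37), Bnip3 (-1.15), P4ha1 (-0.69), Egln3 (-2.06) and Txnip (-0.80) were also lower than in NT. This comparison uses the same 2 resting NT libraries as that of the vector cultures, so it is no independent repeat. The list calls without the second NT library are not given here either. The lists held 10 calls, all in the lower direction, against 1.74% of all genes called lower. They were 3 of 12 other hypoxia-response genes, 2 of 16 glycogen genes, 2 of 20 regulators, and 1 each among other transporters, pentose phosphate genes and pyruvate dehydrogenase and carboxylase genes. Under KCl, vector against NT gave 2 of 16 citric acid cycle genes, 1 of 16 glycogen genes and 1 of 8 pentose phosphate genes, all lower. Of all genes, 1.95% were called lower there.

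At DIV7, KCl lowered Txnip, an arrestin-like protein that restrains glucose uptake, from a mean of 48.3 to 2.15 CPM (log2 fold change -4.49, SE 0.13, adjusted p = 4.92e-06), the largest change among the called genes of these pathway lists. The response of Txnip at DIV18 in NT differed from it by 4.05 on the log2 scale (SE 0.20, adjusted p = 6.22e-05 in edgeR). Early-response genes were called in that test too: Fosb (-4.83), Nr4a1 (-4.23), Fos (-3.86), Egr1 (-3.46), Egr2 (-3.43) and Junb (-3.36), but not Arc or Npas4. Culture age, RNA selection, guide RNA and DMSO differ together there and cannot be told apart. Other calls at DIV7 were 3 higher and 1 lower among 11 hypoxia-response genes, 3 lower among 11 other transporters, 1 higher and 2 lower among 16 glycogen genes, 3 lower among 20 regulators (Txnip included), 2 lower among 14 other isozymes, 2 lower among 8 pentose phosphate genes, and 1 in each direction among 7 pyruvate dehydrogenase and carboxylase genes. No citric acid cycle or NADH shuttle gene was called there. Over all genes, 7.34% were called higher and 9.67% lower at DIV7. Between the ages at rest, 30.0% of all genes were called higher and 30.6% lower at DIV18 in CPM. On that scale, 13 of 16 citric acid cycle genes and 6 of 9 NADH shuttle genes were higher and none lower. Of the other transporters 9 of 12 were higher and 2 lower, and of the pentose phosphate genes 2 of 8 were higher and 5 lower. Levels between the ages depend on the scale, and these lists are given in CPM only. The remaining lists gave 6 higher and 1 lower of 14 isozymes, 4 and 0 of 7 pyruvate dehydrogenase and carboxylase genes, 8 and 2 of 16 glycogen genes, 10 and 6 of 20 regulators, and 6 and 3 of 12 hypoxia-response genes.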

How the data were processed

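RNA was sequenced from 24 libraries of cortical neurons. Per the file headers, the deposited tables give for each of 142552 transcripts an estimated count, a TPM value (scaled by effective length to the same sum in every library) and the length, 1 table per library; the submitters' processing notes name FastQC, cutadapt and kallisto. The genome build and annotation are not given in the sources used here. Transcripts were matched by identifier to GENCODE M21 (GRCm38): 141429 matched (99.2%), and the others held at most 0.467% of the counts. Estimated counts deposited by the authors were summed per gene, rounded to whole numbers and tested with edgeR's quasi-likelihood test (edgeR 4.0.16, R 4.3.3; TMM scaling, filterByExpr, Benjamini-Hochberg adjustment over all genes tested, called at an adjusted p under 0.05). The DIV7 libraries (19822 genes), the 20 DIV18 libraries in 8 groups (20940 genes) and the DIV7 with the NT libraries (21072 genes) were fitted separately, in 21 comparisons. SE is the log2 fold change over the square root of F. Library totals limit the precision, and p-values cover the spread between these samples. TPM, as deposited, was used for levels between genes and for isozyme shares. Alternatives were DESeq2 1.42.0, other size factors, no filter, length offsets, other sets of libraries, replicate blocks and leaving out each library; adding the counts of near-identical copies and crossing the NT numbers were chosen after seeing the data. The fits were tested on simulated data.

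The members and lists were chosen with earlier results of these data known. Every member called in a comparison is given by library, or the 10 largest changes where more than 10 were called. The comparison of the ages under KCl is given by counts of members only. Genes of other lists are named only where called. The labels do not say whether replicate numbers pair cultures, and the main tests used no pairing. Same-numbered samples were read as paired only where all 3 pairs deviated together across genes (correlation over 0.1). These were the KCl response with vector (0.160, 0.131 and 0.327), wild type against vector under KCl (0.178, 0.197 and 0.348) and S586E against vector (0.381, 0.170 and 0.368).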

Additional observations from a re-analysis of the deposited data

How the results depend on the processing

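Counts of called members moved in these settings. Without a low-count filter they were 17 for vector against NT at rest and 9 under KCl (4.90% and 3.49% of all genes called). They were 13 for S586E and 4 for S586A against NT (1.59% of all genes for S586A). Against vector they were 13 and 2 for wild type at rest and under KCl, 3 for S586E and 8 for S586A (1.29% of all genes for S586A). S586E against wild type gave 11, and wild type against NT under KCl 1. The KCl response gave 3 in NT and 7 with vector (0.467% and 1.25% of all genes). The differences of responses gave 9 for vector minus NT, 4 for wild type minus vector and 5 for NT minus DIV7 (1.09%, 0.282% and 3.14% of all genes). DESeq2 gave 10 for S586E and 1 for S586A against NT (1.65% of all genes for S586A). It gave 5 for wild type and 4 for S586A against vector (1.03% of all genes for S586A), and 4 for S586E against wild type. It gave 1 each for wild type against NT under KCl, the KCl response with vector (0.248% of all genes) and NT minus DIV7 (2.59% of all genes). Length offsets gave 1 for S586E against NT, 3 for vector against NT under KCl (1.33% of all genes) and 1 for NT minus DIV7 (1.23% of all genes). A fit of all 24 libraries also gave 1 for NT minus DIV7 (1.82% of all genes). Fitting only the groups compared gave 6 for vector against NT at rest (1.22% of all genes), 5 for S586E against wild type and 1 for the KCl response with vector (0.0854% of all genes). Where no share of all genes stands beside a count, it is given above or is not given here. The cause was not tested in any of these.

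Leaving out 1 library at a time gave 1 to 10 members for vector against NT at rest, 1 to 1 under KCl, and 0 to 7 for S586E against NT; where 1 library remained in a group, it was assumed to vary like the others. With the replicate number as a block, the KCl response at DIV7 had 8 called members of 34. Calls over all genes rose too, from 17.0% in the main fit to 29.5%. The block changed no call where the numbers were read as pairing the samples. The crossed pairing of the NT libraries, added after seeing the data, gave 7 genes called for the KCl response in NT against 6 with the numbered block and 2 without a block, and 0 members in each.

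By estimated counts in place of TPM, the DIV7 shares were Hk2 1.40%, Pfkp 79.6%, Pfkm 14.9%, Ldhb 23.6%, Slc2a1 4.59%, Pfkfb3 54.1%, Pdk2 15.4%, Pdk1 71.4% and Mpc1 62.5%, and the NT shares Slc16a1 55.1%, Pfkfb3 65.9%, Pdk2 46.4%, Pdk1 40.3% and Mpc1 70.3%; with copies of Eno1 added, Eno2 held 57.3% in NT. The Pkm M1 share by TPM was 76.2% and 77.6% at DIV7 and 53.7% and 54.5% in NT. Eno1 reversed between the ages with its copies added (log2 fold change 1.09 at rest and 0.90 under KCl). Of the other values for single members, 911 kept direction and side of the threshold, 127 lost and 3 gained the call.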
